A study of Mus musculus with 15 samples.

Results

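Collagen genes were taken as every symbol made of Col, a type number, the letter a and a chain number, and 44 of the 37620 gene identifiers in each count table met that rule, 1 identifier for each symbol. They were handled in 3 compartments: 31 stromal chains (11 fibrillar, 9 fibril-associated or FACIT, 8 beaded and 3 of short networks), 10 chains of the basement membrane and its anchoring zone, and 3 membrane-spanning chains. The libraries came from the ileum (the distal small intestine) of 15 adult mice in 2 cohorts, sampled 8 days or 3 months after tamoxifen. At 8 days there were 3 control libraries, all Rfx6f/f, and 4 libraries labelled mutant, which were Rfx6f/f and carried Vilin-CreERT2 (the labels' spelling). At 3 months there were 4 controls, of which replicates 1 and 4 were Rfx6f/f and replicates 2 and 3 Rfx6f/+, and 4 libraries labelled mutant of the same genotype as at 8 days. Every animal, controls included, received the tamoxifen course, 2 gavages of 10 mg a day on alternate days over 5 days. Rfx6 encodes a transcription factor of hormone-producing cells of the gut, and the Villin promoter that drives the inducible recombinase is active in the intestinal epithelium, whereas most collagen chains of the gut wall are made by cells beneath it.

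Collagens are trimeric proteins of the extracellular matrix. Fibrillar chains (types I, III, V, XI and others) build the tensile fibres of the lamina propria and submucosa, FACIT chains such as types XII and XIV sit on the fibre surface, and type VI forms beaded filaments around cells. Type IV chains make the sheet-like network of basement membranes, to which types XV and XVIII are attached, while types XIII, XXIII and XXV span the plasma membrane. In the intestine fibroblasts, smooth muscle cells, pericytes and endothelial cells are the main sources, and the epithelium contributes some basement membrane chains.

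The targeted gene did not fall with the mutant label. Rfx6 (ENSMUSG00000019900) had 50, 50 and 84 counts in the 8-day controls and 80, 105, 63 and 44 in the 8-day libraries labelled mutant. At 3 months it had 51, 52, 38 and 43 counts in controls and 106, 72, 89 and 65 in libraries labelled mutant, a log2 fold change of 0.72 (SE 0.17, edgeR adjusted p = 0.0347). These counts cover the whole gene and do not isolate its deleted part. The groups below are those of the labels, and directions are given for libraries labelled mutant over control. In units of 1000000 counts, the 8-day libraries held 30.5 to 54.5 and the 3-month libraries 26.1 to 36.3, so that 3 counts stood for 0.0551 to 0.0985 and 0.0827 to 0.115 counts per 1000000 (CPM). The epithelial markers, Vil1 and Cdx2 among them, summed to between 9899.8 and 13880.2 CPM in all 15 libraries. At 8 days the sums were 12704 to 13880.2 CPM in controls and 11457 to 12523 CPM in libraries labelled mutant, which do not overlap. Of these 10 markers 0 had a positive log2 fold change at 8 days and 0 were called by edgeR.

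At 3 months 15 collagen genes were higher in the libraries labelled mutant, and at 8 days edgeR called 0. At the later time 40 of the 44 chains were tested and 15 passed an adjusted p of 0.05, all of them upward: Col6a1, Col6a2, Col6a3, Col6a4, Col6a5, Col12a1, Col14a1, Col4a1, Col4a2, Col4a3, Col4a4, Col15a1, Col18a1, Col13a1 and Col23a1. Of all 17085 genes tested at that time, 9.28% passed, and 4.96% passed upward. A further reading without adjustment gave 27 chains at p under 0.05, all higher, where 14.5% of all genes were higher at that level. In 20 chains every library labelled mutant lay above every control, which held for 9.7% of all genes. The median log2 fold change was 0.59 over the 40 chains and 0.01 over all genes tested, and 37 chains had a positive value, from -0.39 for Col25a1 to 1.63 for Col4a3. As the labels name separate samples and nothing about their handling, p-values measure the spread between these samples.

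**Figure D1:**
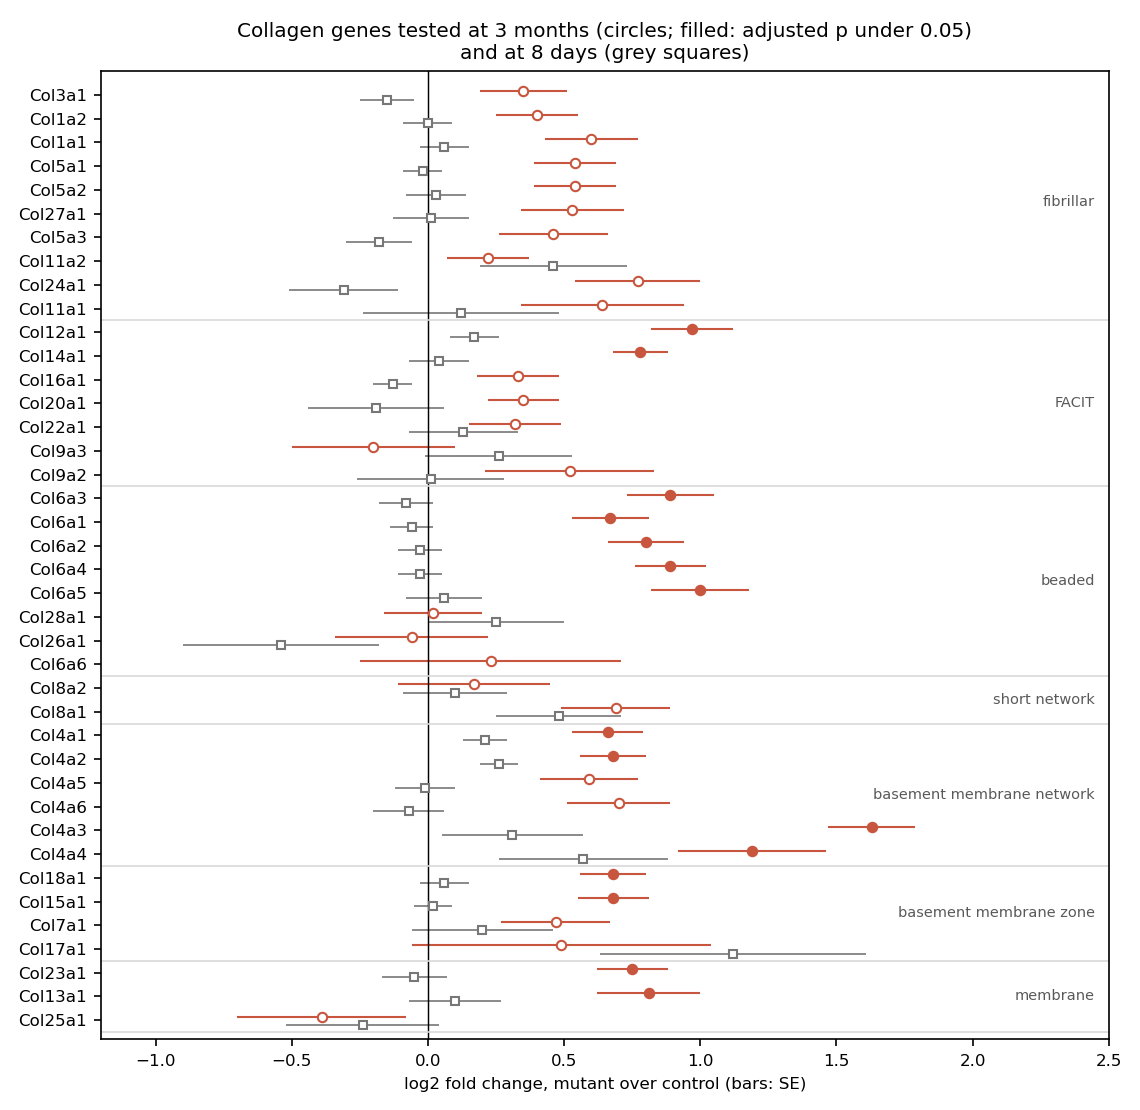
Log2 fold change (libraries labelled mutant over control) of each collagen gene tested, grouped by class; circles with SE bars are 3 months, filled where the adjusted p was under 0.05, and grey squares are 8 days. The 15 filled circles lie between 0.66 and 1.63, and 37 of 40 circles lie above 0.

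The chains that could not be tested at 3 months were Col2a1, Col9a1, Col10a1 and Col19a1, which had 0 to 10 counts a library. Col6a6 also fell below the filter at 8 days, with 0 to 12 counts. A chain can pass the filter through the group where it is higher, so the counts above describe tested chains and not the whole family.

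In all, the 44 genes took up 0.198 to 0.213% of the counts of the 3-month controls and 0.26, 0.328, 0.423 and 0.268% in replicates 1 to 4 labelled mutant, with no overlap. In the 8-day cohort the share was 0.376 to 0.432% in controls and 0.386 to 0.423% in libraries labelled mutant, so the 3-month controls had the lowest shares of the series. Stromal chains alone held 0.157 to 0.17% of counts in the 3-month controls and 0.203 to 0.336% in the libraries labelled mutant. Basement membrane chains held 0.0384 to 0.0435% and 0.0544 to 0.0837%, and at 8 days 0.0692 to 0.0792% in controls and 0.0802 to 0.0856% in libraries labelled mutant, which did not overlap either. At 3 months mutant-labelled replicate 3 was the highest of its group on both measures. The stromal total divided by the basement membrane total was 3.83 to 4.43 in 3-month controls and 3.65 to 4.01 in 3-month libraries labelled mutant, which overlap. At 8 days that ratio was 4.39 to 4.59 in controls and 3.68 to 3.9 in libraries labelled mutant, which do not. The epithelial marker sums above were also apart between labels at 8 days, and their part in these shares was not tested.

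**Figure D2:**
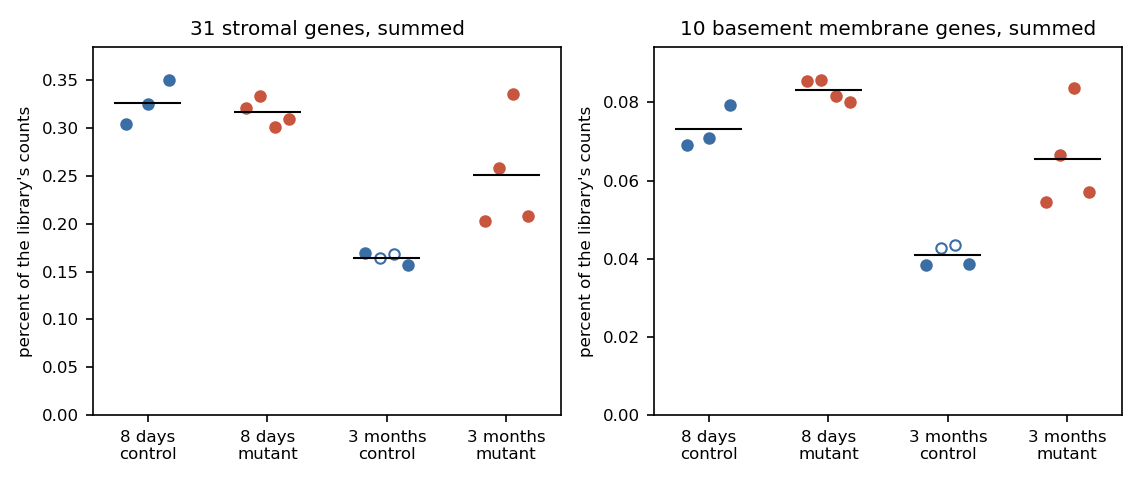
Percent of all counts in stromal and in basement membrane collagen genes for each of the 15 libraries (blue control, open blue Rfx6f/+ control, red labelled mutant, black line the group mean). At 3 months all 4 libraries labelled mutant lie above all 4 controls for stromal chains (0.203 to 0.336 against 0.157 to 0.17) and for basement membrane chains (0.0544 to 0.0837 against 0.0384 to 0.0435).

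Levels between genes were compared as CPM per kilobase of the transcript with the longest coding sequence. In the 3-month controls Col3a1, the fibrillar chain of reticular fibres, was the most abundant at 85.1 ± 5.76 (SD, n = 4), followed by Col6a1 at 40.9, Col1a2 at 38.7, Col4a1 at 30.5, Col6a2 at 27.3, Col6a3 at 16.8, Col1a1 at 15.7 and Col4a2 at 15.3. The 3-month libraries labelled mutant kept Col3a1 first at 109 ± 28.2 (SD, n = 4), and Col6a1 stood at 65.2, Col1a2 at 51.1, Col4a1 at 48.2 and Col6a2 at 47.3. In the 8-day controls the order began with Col3a1 at 159, Col1a2 at 85.6 and Col1a1 at 65.5, ahead of Col6a1 at 63.0. The order depends on the gene model: per kilobase of all exons joined, Col1a2 of the 8-day controls stood at 36.9 and Col1a1 at 59.2. Chains with small levels included the anchoring-zone Col17a1 at 0.0651 in the 3-month controls and Col4a4 at 0.0752.

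Of the 6 genes of type VI, 5 were called at 3 months, all higher. Col6a1, Col6a2 and Col6a3 encode the chains of the common heterotrimer, and Col6a4 and Col6a5 encode chains related to Col6a3. Col6a3 was at 174, 167, 185 and 154 CPM in controls and at 262, 344, 409 and 243 CPM in libraries labelled mutant. Its lowest library labelled mutant thus exceeded its highest control, and the 1.85-fold difference (log2 0.89, SE 0.16) had an edgeR adjusted p of 0.0159. Col6a2 read 114, 103, 115 and 99.1 CPM in controls and 162, 193, 242 and 151 CPM in libraries labelled mutant, a log2 fold change of 0.80 (SE 0.14, edgeR adjusted p = 0.0159). For Col6a1 the controls read 177, 158, 170.2 and 166 CPM and the libraries labelled mutant 219, 270, 348 and 232 CPM (log2 0.67, SE 0.14, edgeR adjusted p = 0.0227). Neither gene overlapped between groups.

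Col6a4 stood at 72.3, 65.3, 85.5 and 66.5 CPM in controls and at 117, 140.2, 166 and 115 CPM in libraries labelled mutant, again without overlap, and rose 1.86-fold (log2 0.89, SE 0.13, edgeR adjusted p = 0.00934). Col6a5 had 25.6, 32.8, 24.8 and 25.8 CPM in controls and 44.6, 71.0, 62.2 and 40.2 CPM in libraries labelled mutant (log2 1.0, SE 0.18, edgeR adjusted p = 0.0175). Col6a6, the sixth gene of the type, had a log2 fold change of 0.23 at a level near the filter and was not called. The other beaded chains, Col26a1 and Col28a1, had values of -0.06 and 0.02. Exons of Col6a4 overlap those of genes on the opposite strand in the reference annotation, and as the strand setting of the counting is not given in the sources used here, reads from such partners cannot be told apart.

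**Figure D3:**
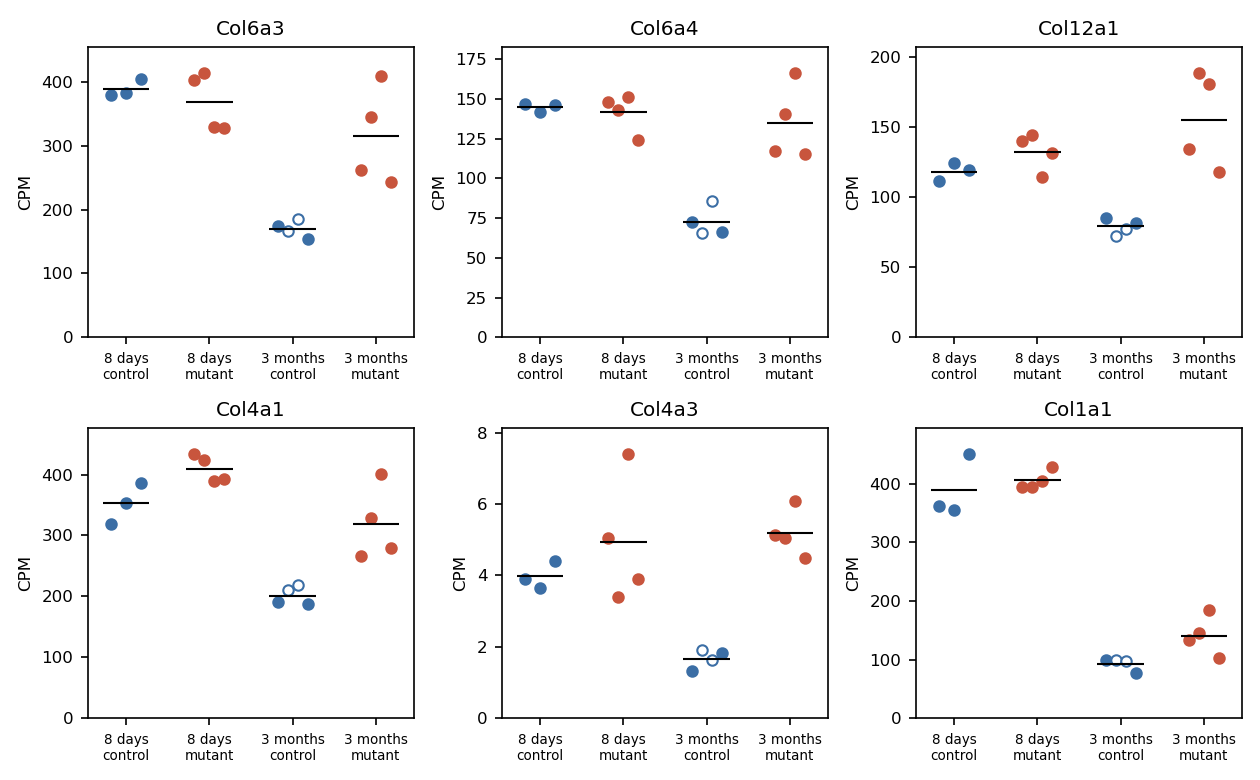
CPM of 6 collagen genes (Col6a3, Col6a4, Col12a1, Col4a1, Col4a3, Col1a1) in each library, by cohort and label (blue control, open blue Rfx6f/+ control, red labelled mutant, black line the group mean). At 3 months no library labelled mutant reaches down to a control in any panel, and at 8 days the groups overlap in each panel except Col4a1.

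Among FACIT chains 2 of 7 tested were called at 3 months. Col12a1, which coats fibril surfaces in tissues under load, was at 85.0, 72.0, 77.4 and 81.4 CPM in controls and at 134, 188, 180.4 and 118 CPM in libraries labelled mutant. These groups did not overlap, and the 1.96-fold rise (log2 0.97, SE 0.15) had an edgeR adjusted p of 0.00943. Col14a1, a related fibril-surface chain, read 50.1, 47.3, 48.7 and 46.4 CPM and 72.3, 96.4, 90.3 and 70.5 CPM (log2 0.78, SE 0.10, edgeR adjusted p = 0.00707), also without overlap. The controls of Col14a1 had an SD of 1.64 CPM around 48.1 CPM. The other FACIT chains tested, from Col9a3 at -0.20 to Col9a2 at 0.52 on the log2 scale, did not pass.

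Fibrillar chains leaned the same way and none was called by edgeR: 0 of 10 tested, with 7 at an unadjusted p under 0.05, all higher, and a median log2 fold change of 0.54 (range 0.22 to 0.77). Col1a1 was at 99.7, 99.4, 98.1 and 76.4 CPM in controls and at 133, 145, 184 and 102 CPM in libraries labelled mutant. These did not overlap (log2 0.60, SE 0.17, edgeR adjusted p = 0.0542). Col1a2, its partner in the type I trimer, was at 223, 206, 218 and 181 CPM and at 248, 264, 363 and 218 CPM, where mutant-labelled replicate 4 lay within the controls (log2 0.40, SE 0.15, edgeR adjusted p = 0.113). Col3a1 read 519, 446, 469.7 and 459 CPM in controls and 504, 599, 828 and 486 CPM in libraries labelled mutant, with replicates 1 and 4 labelled mutant among the controls (log2 0.35, SE 0.16, edgeR adjusted p = 0.18). The type V chains Col5a1 and Col5a2, which set fibril diameter, did not overlap between groups, each at a log2 fold change of 0.54 with edgeR adjusted p of 0.0532 and 0.0518. DESeq2 called 5 fibrillar chains, Col1a1, Col5a1, Col5a2, Col24a1 and Col27a1, among 23 collagen genes in all, where 8% of the 17999 genes with a DESeq2 adjusted p were called upward. With all 4 groups in 1 edgeR fit Col1a1, Col5a1, Col5a2 and Col24a1 were called, where 1148 of 17959 genes were called higher. Without mutant-labelled replicate 4 edgeR called Col1a1, Col5a1 and Col5a2, where 746 of 17294 genes were. Of the short-network chains Col8a1 had a log2 fold change of 0.69 (edgeR adjusted p = 0.0635) and Col8a2 of 0.17.

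The basement membrane chains were all positive at 3 months: 6 of 10 were called, 9 had an unadjusted p under 0.05, 6 did not overlap between groups, and the median log2 fold change was 0.68, against 7 called, 16 at an unadjusted p under 0.05, 12 without overlap and a median of 0.53 among the 27 stromal chains tested. The compartments were not tested against each other. Type IV accounted for 4 of the 6. Col4a1 and Col4a2, the chains of the ubiquitous type IV network, lie head to head on mouse chromosome 8, so that their promoter windows overlap. RefSeq windows on GRCm38.p6 run from 250 bases before to 50 after each transcript start, and both are shown because the pair moved together. The starts lie 21 bases apart, and 22 exon bases of the pair overlap in the reference annotation. Capitals mark the 78 bases that both windows hold, chr8:11312777-11312854, read on opposite strands. The first is chr8:11312777-11313076 on the minus strand and the second chr8:11312555-11312854 on the plus strand.
Col4a1: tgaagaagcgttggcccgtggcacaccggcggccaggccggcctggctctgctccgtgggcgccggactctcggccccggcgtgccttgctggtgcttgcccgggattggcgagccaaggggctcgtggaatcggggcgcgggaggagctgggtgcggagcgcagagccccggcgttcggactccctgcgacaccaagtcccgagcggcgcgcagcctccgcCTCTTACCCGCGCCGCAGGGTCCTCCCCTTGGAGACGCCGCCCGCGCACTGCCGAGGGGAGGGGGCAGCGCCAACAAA
Col4a2: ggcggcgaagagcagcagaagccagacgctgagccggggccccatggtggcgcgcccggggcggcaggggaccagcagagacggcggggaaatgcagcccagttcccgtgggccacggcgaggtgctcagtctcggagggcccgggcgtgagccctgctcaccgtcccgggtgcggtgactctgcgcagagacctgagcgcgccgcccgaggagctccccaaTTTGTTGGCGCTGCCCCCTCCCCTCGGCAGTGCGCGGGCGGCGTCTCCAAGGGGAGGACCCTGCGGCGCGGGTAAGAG

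Both windows hold CCAAT and GGGCGG, searched on both strands as letters only, with no overlap between these motifs. Over the 38 windows of the 35 collagen genes matched in the RefSeq table, CCAAT was found in 13, GGGCGG in 23 and TATAAA in 5, where 37.4%, 35.7% and 13.6% of all 32851 windows hold them. A match is a description of the letters and not of a binding site.

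Col4a1 was at 190.3, 210.3, 218 and 187 CPM in the 3-month controls and at 267, 328, 400.4 and 279 CPM in libraries labelled mutant (log2 0.66, SE 0.13, edgeR adjusted p = 0.0198). Col4a2 read 94.0, 103, 107 and 92.2 CPM in controls and 139, 164, 196 and 134 CPM in libraries labelled mutant (log2 0.68, SE 0.12, edgeR adjusted p = 0.0159). Neither chain overlapped between groups. The differences were 1.58-fold and 1.6-fold.

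Col4a3 had the highest fold change of the family. This chain, which with Col4a4 and Col4a5 forms the specialised network known from the kidney glomerulus, was at 1.32, 1.90, 1.63 and 1.83 CPM in controls, from 38, 62, 42 and 52 counts. In libraries labelled mutant it was at 5.14, 5.05, 6.08 and 4.49 CPM, from 160, 153, 228 and 126 counts, a 3.10-fold rise (log2 1.63, SE 0.16, edgeR adjusted p = 0.00184). Its level stayed low: per length, Col4a3 was 0.00537 to 0.00756 of Col4a1 in controls and 0.0117 to 0.0149 in libraries labelled mutant. Part of its exon sequence overlaps a gene on the opposite strand in the reference annotation that has no row in the tables. Col4a4 had 22, 27, 10 and 30 counts in controls, at 0.388 to 1.06 CPM, and 43, 51, 76 and 54 counts in libraries labelled mutant, at 1.38 to 2.03 CPM (log2 1.19, SE 0.27, edgeR adjusted p = 0.0316), with no overlap.

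The X-linked pair Col4a5 and Col4a6 was not called by edgeR in the 3-month fit. Both were among the 23 collagen genes called by DESeq2 and the 21 called with all 4 groups in 1 edgeR fit. Both were also among the 20 called by edgeR without mutant-labelled replicate 4. Col4a5 was at 13.8, 11.7, 15.3 and 14.6 CPM in controls and at 21, 22.8, 25.6 and 13.9 CPM in libraries labelled mutant (log2 0.59, SE 0.18, edgeR adjusted p = 0.0646). Col4a6 was at 6.96, 5.84, 7.07 and 7.64 CPM and at 11.7, 13.0, 12.8 and 7.01 CPM (log2 0.70, SE 0.19, edgeR adjusted p = 0.0536). In both, mutant-labelled replicate 4 lay within the controls and the other 3 above them.

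Col15a1 and Col18a1, which link basement membranes to the matrix below, were called with 1.60-fold differences each. Col15a1 was at 21.3, 19.8, 21.2 and 19.9 CPM in controls and at 29.4, 35.7, 40.1 and 26.1 CPM in libraries labelled mutant (log2 0.68, SE 0.13, edgeR adjusted p = 0.0182). Col18a1, the precursor of endostatin, was at 62.2, 60.3, 65.6 and 57.1 CPM and at 93.3, 99.0, 122 and 78.8 CPM (log2 0.68, SE 0.12, edgeR adjusted p = 0.0157). Neither overlapped. Col7a1 of anchoring fibrils and Col17a1 of hemidesmosomes, both epithelial products in skin, had values of 0.47 and 0.49 with edgeR adjusted p of 0.164 and 0.583.

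Of the membrane-spanning chains Col13a1 and Col23a1 were called and Col25a1 was not. Col13a1 was at 5.46, 4.88, 6.72 and 5.35 CPM in the 3-month controls and at 7.16, 12.5, 11.3 and 8.22 CPM in libraries labelled mutant (log2 0.81, SE 0.19, edgeR adjusted p = 0.036). Col23a1 was at 12.5, 10.0, 10.6 and 13.9 CPM and at 18.6, 17.4, 23.5 and 19.4 CPM (log2 0.75, SE 0.13, edgeR adjusted p = 0.0157). Neither overlapped between groups. The call of Col13a1 was lost in 8 of 16 alternative fits, among them those without any 1 control, and that of Col23a1 in 2.

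At 8 days edgeR called 0 of the 39 chains tested, with 3 at an unadjusted p under 0.05, and DESeq2 called 0 of 44. Of all 17493 genes tested at 8 days, 0.0915% passed the adjusted threshold and 8.8% had an unadjusted p under 0.05. The median log2 fold change of the chains was 0.03. The 3 chains were Col4a1, Col4a2 and Col17a1, all higher in libraries labelled mutant. Col4a2 was at 191, 199 and 219.8 CPM in controls and at 255, 246, 238 and 234 CPM in libraries labelled mutant (log2 0.26, SE 0.07, edgeR adjusted p = 0.46). Col4a1 was at 319, 354 and 386 CPM and at 433, 423, 389.7 and 393 CPM (log2 0.21, SE 0.08, edgeR adjusted p = 0.495). These were the only 2 tested chains whose groups did not overlap upward, as in 3.84% of all genes, and 0 chains did so downward, against 3.8%. Col17a1 rested on 12 to 53 counts (log2 1.12, SE 0.49, edgeR adjusted p = 0.558). For the abundant stromal chains the 8-day values were close between labels: Col1a1 at 389 ± 53.0 CPM (SD, n = 3) and 406 ± 15.6 CPM (SD, n = 4), Col3a1 at 882 ± 122 and 797 ± 41.4 CPM, and Col6a3 at 389 ± 14.2 and 368 ± 46.1 CPM. Their log2 fold changes were 0.06 (SE 0.09), -0.15 (SE 0.10) and -0.08 (SE 0.10), with edgeR adjusted p of 0.939, 0.78 and 0.919.

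The change between the 2 times was tested as the interaction in a fit of all 15 libraries. A positive value means a more positive log2 fold change at 3 months than at 8 days. The interaction was called in 3 of 40 chains, all type VI and all positive, against 0.379% of 17959 genes called in that direction. Col6a4 differed by 0.91 on the log2 scale (SE 0.17, edgeR adjusted p = 0.0342), Col6a3 by 0.95 (SE 0.20, edgeR adjusted p = 0.0487) and Col6a2 by 0.81 (SE 0.17, edgeR adjusted p = 0.0487). Without adjustment 23 chains had p under 0.05, all more positive at 3 months, where 7.52% of all genes did. The median over the 40 chains was 0.51 and over all genes -0.01. Col4a3 had the largest estimate at 1.31 (SE 0.31) with an edgeR adjusted p of 0.0562, and Col4a1 and Col4a2 had 0.43 and 0.40 with 0.193 and 0.182. The 3 calls depended on single libraries: 0 chains were called without 3-month control replicate 1 or 2, without 8-day control replicate 1, 2 or 3, or without 8-day mutant-labelled replicate 4, and 1 was called without 3-month control replicate 3 or 4, 3-month mutant-labelled replicate 1 or 3, or 8-day mutant-labelled replicate 2 or 3. The count was 5 without 3-month mutant-labelled replicate 2, 13 without 3-month mutant-labelled replicate 4 and 10 without 8-day mutant-labelled replicate 1. Time and cohort cannot be told apart in this design.

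The cohorts themselves differed in collagen level, with libraries of all groups put on a joint scale. In 29 of 40 chains every 3-month control lay below every 8-day control, as in 24.4% of all genes, and the median log2 ratio of the control means was -0.86 over the chains and 0.02 over all genes. Col1a1 was 4.32 times higher in the 8-day controls than in the 3-month controls (397 and 92.0 CPM), Col6a3 2.37 times (398 and 167 CPM) and Col4a1 1.82 times (361 and 199 CPM). Col6a5 went the other way, at 14.9 CPM in the 8-day controls and 26.9 CPM in the 3-month controls, the only chain whose 3-month controls lay wholly above. Among libraries labelled mutant, 8 of 40 chains lay wholly lower at 3 months, where 16.4% of all genes did. These 8 were Col1a1, Col1a2, Col4a1, Col4a2, Col8a2, Col9a3, Col15a1 and Col16a1.

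Ratios of chains within a library, per length, were compared for 8 pairs, of which 3 are plotted. Col1a1 over Col1a2 was 0.705 to 0.811 at 8 days over both labels, 0.382 to 0.436 in 3-month controls and 0.424 to 0.496 in 3-month libraries labelled mutant. Col6a3 over Col6a1 was 0.58 to 0.643 at 8 days, 0.377 to 0.441 in 3-month controls and 0.425 to 0.517 in 3-month libraries labelled mutant. Col4a1 over Col4a2 ran the other way, 1.59 to 1.73 at 8 days and 1.87 to 2.03 at 3 months. Thus the cohorts did not overlap in these 3 ratios, while the 2 labels overlapped within each cohort. Col6a4 over Col6a3 overlapped between cohorts (0.476 to 0.63 at 8 days and 0.537 to 0.646 at 3 months). Col4a3 over Col4a1 overlapped between cohorts too (0.00621 to 0.0147 and 0.00537 to 0.0149), and separated the labels at 3 months as given above. The other 3 pairs also separated the cohorts, at 8 days and 3 months: Col6a1 over Col6a2 at 1.11 to 1.2 and 1.31 to 1.61, Col1a1 over Col3a1 at 0.345 to 0.508 and 0.156 to 0.248, and Col6a3 over Col1a1 at 0.449 to 0.633 and 0.984 to 1.39. In all, 6 of the 8 ratios did not overlap between cohorts. The GC content of the transcripts is 58.9% for Col1a1 and 55.7% for Col1a2, 54.5% for Col6a3 and 56.7% for Col6a1, and 57.7% for Col4a1 and 60.6% for Col4a2. Their part in the result was not tested.

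**Figure D4:**
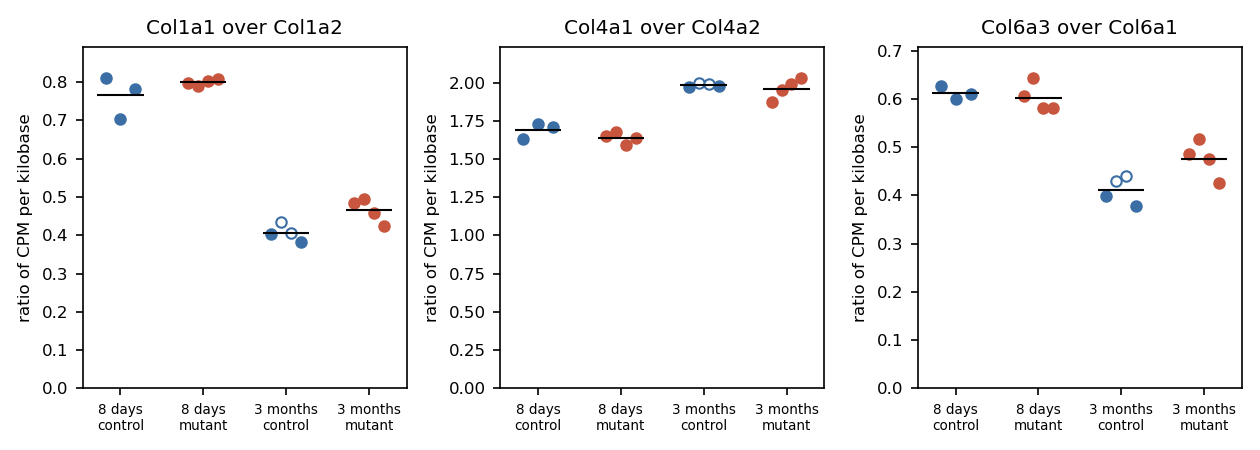
Ratio of 2 chains per transcript length (Col1a1 over Col1a2, Col4a1 over Col4a2, Col6a3 over Col6a1) in each library, by cohort and label (blue control, open blue Rfx6f/+ control, red labelled mutant, black line the group mean). The 2 cohorts are apart in each panel, as for Col1a1 over Col1a2 at 0.705 to 0.811 and 0.382 to 0.496.

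The number of chains called at 3 months varied with the libraries used. Without control replicate 1, 2 or 3 it was 7, 8 and 8, with medians of 0.63, 0.63 and 0.61 on the log2 scale, and without control replicate 4 it was 14. The calls over all genes in those 4 fits were 400, 412, 391 and 1521, against 1586 with every library. Without mutant-labelled replicates 1 to 4 the number of chains called was 15, 14, 13 and 20. Against the 2 Rfx6f/f controls alone edgeR called 1 chain, Col4a3, where 0.131% of 17552 genes were called upward. Against the 2 Rfx6f/+ controls alone it called 3, Col4a3, Col14a1 and Col23a1, where 1.3% of 17679 genes were. In these fits 37 and 36 of 40 chains had positive values, with medians of 0.59 and 0.57. Between the 2 control genotypes edgeR called 0 of 40 chains and 0 of 17780 genes, with 3 chains at an unadjusted p under 0.05 (Col22a1 and Col7a1 higher and Col23a1 lower in Rfx6f/+), where 6.86% of all genes reached that level. All 7 adipocyte and all 7 exocrine pancreas markers were lower in Rfx6f/+ at an unadjusted p under 0.05, with median log2 fold changes of -3.42 and -3.70, and 0 of them were called by edgeR. Their part in the collagen values was not tested.

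Some partner genes of collagen rose at 3 months in 5 of the 6 lists examined, and at 8 days 0 genes of these lists were called by edgeR. Over all genes 4.96% were called higher. Of 29 genes tested for collagen synthesis, folding and cross-linking, 4 rose and 0 fell: the lysyl hydroxylase Plod1 (log2 0.77, edgeR adjusted p = 0.00897), the procollagen protease Adamts3 (0.67, 0.0165) and the cross-linking oxidases Loxl3 (0.90, 0.0192) and Loxl4 (0.78, 0.0411). Of 25 other stromal matrix genes 8 rose and 0 fell, with the smallest adjusted p for fibronectin Fn1, from 128 ± 8.61 to 228 ± 35.4 CPM (SD, n = 4 each; log2 0.83, edgeR adjusted p = 0.00613), then Prelp at 0.51, tenascin Tnc at 0.71 and fibrillin Fbn2 at 0.71. The largest fold of the 8 was that of biglycan, Bgn, at 0.85 (edgeR adjusted p = 0.0224). Basement membrane partners gave 6 of 17 higher and 0 lower, among them the laminin chains Lama5 (log2 0.90, edgeR adjusted p = 0.008), Lamc1 (0.49, 0.0294) and Lamb1 (0.53, 0.0321) and nidogen Nid1 (0.69, 0.0146). The median log2 fold changes were 0.25, 0.46 and 0.43 in these 3 lists.

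Of 17 proteases and inhibitors of collagen breakdown, 5 rose and 0 fell. Mmp9, a gelatinase that cuts denatured collagen and type IV, went from 7.68 ± 2.03 to 38.9 ± 10.0 CPM (SD, n = 4 each), a log2 fold change of 2.34 (SE 0.23, edgeR adjusted p = 0.00209). Mmp10 (0.73), Mmp15 (0.98) and the gelatinase Mmp2 (0.52) were the others of smallest adjusted p, and the fifth was the inhibitor Timp3 (0.35, edgeR adjusted p = 0.0424). A further 3 genes, the protease Mmp7 (-0.40) and the inhibitors Timp1 (-1.07) and Timp4 (-1.85), were lower at an unadjusted p under 0.05 and were not called. Of 15 genes of TGF-beta signalling, a known inducer of fibrillar collagen, Ltbp1 (0.51) and Ltbp3 (0.48), which bind the latent form, rose and 0 fell. Of 9 collagen receptors 0 were called by edgeR, with 3 at an unadjusted p under 0.05, and all 9 had positive values with a median of 0.15.

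**Figure D5:**
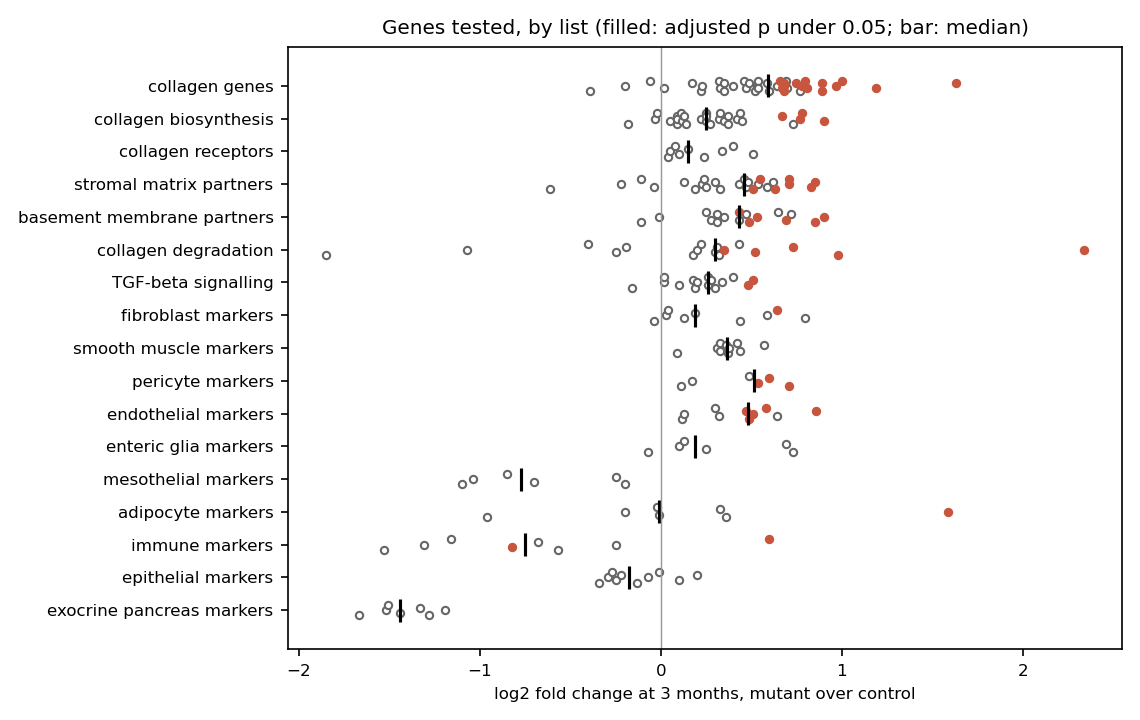
Log2 fold change at 3 months (libraries labelled mutant over control) of each tested gene. The collagen genes form 1 row, beside the partner lists and cell marker lists. Filled points had an adjusted p under 0.05 and the bar is the median of the row. The median of the 40 collagen genes (0.59) stands beside 0.43 for basement membrane partners, 0.48 for endothelial and -0.18 for epithelial markers.

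Among markers of the cells that make collagen, several endothelial and pericyte genes rose at 3 months. In bulk tissue, a changed number of cells of a type and a changed amount of RNA per cell cannot be told apart. Endothelial markers gave 5 of 10 higher and 0 lower (Vwf, Cdh5, Tie1, Kdr and Eng), with a summed level of 174 to 191 CPM in controls and 222 to 304 CPM in libraries labelled mutant, which do not overlap. Pericyte markers gave 3 of 6 (Pdgfrb, Cspg4 and Abcc9), with sums of 392 to 494 and 428 to 686 CPM. Of 9 fibroblast markers 1 was called, Pdgfra, from 103 ± 5.44 to 161 ± 32.3 CPM (SD, n = 4 each; log2 0.64, edgeR adjusted p = 0.0217), with sums of 554 to 608 and 580.4 to 832 CPM, and 2 had an unadjusted p under 0.05. Values were positive in 8 of 9, with a median of 0.19, from -0.04 for Dcn to 0.80 for Bmp5 (edgeR adjusted p = 0.109). Smooth muscle markers gave 0 of 10 called by edgeR, 5 at an unadjusted p under 0.05, a median of 0.37 and sums of 2294 to 2791 and 2473 to 4101 CPM. Mutant-labelled replicate 3, with the highest collagen share of the 3-month libraries, also had their highest sums of these 4 lists. No marker of these lists stood at 0 throughout a group. The part of these cells in the collagen result was not tested.

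Epithelial markers gave 0 of 10 called by edgeR, 5 lower at an unadjusted p under 0.05 (14.8% of all genes were), and sums of 11245 to 13002 and 9899.8 to 11553 CPM. Glial markers gave 0 of 6 called by edgeR, with 1 higher at an unadjusted p under 0.05. Mesothelial markers gave 0 of 6 called by edgeR, all with negative values and a median of -0.78. The 1 lower at an unadjusted p under 0.05 was Krt19, which epithelium also expresses, with a control mean of 1617 CPM and a mean of 1361 CPM under the mutant label, where the other 5 had means of at most 11.7 CPM. Of 8 immune markers Csf1r rose (log2 0.60) and Itgam fell (-0.82), 4 were lower at an unadjusted p under 0.05, and 1 of 8 had a positive value, with a median of -0.75. Their sum ran from 344 to 470.4 CPM in controls and from 271 to 366 CPM in libraries labelled mutant, which overlap. Of 7 adipocyte markers Cidec rose (log2 1.59), while Adipoq stood at 9.36 and 8.13 CPM, and the list's sum ran from 22.3 to 160.5 CPM in controls and from 92.1 to 186 in libraries labelled mutant. Of 7 exocrine pancreas markers 0 were called by edgeR and 0 reached an unadjusted p under 0.05, all 7 values were negative with a median of -1.44, and control replicate 4 summed to 1207 CPM where the other 3-month libraries had 26.5 to 366. Without that control 14 of the 15 collagen calls remained. The exception was Col13a1, which also lost its call without any other single control. At 8 days the immune sums were 213 to 229 CPM in controls and 231 to 465 CPM in libraries labelled mutant. The mesothelial sums were 1803 to 2018 and 1423 to 1606 CPM, with Krt19 means of 1919 and 1515 CPM. Both, and the epithelial sums, were apart at 8 days, and the other marker sums overlapped. Their part in the collagen values was not tested.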

How the data were processed

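Gene counts of 15 ileum libraries were analysed. The authors deposited raw read counts per Ensembl gene, 1 table a cohort. Per the submitters' processing notes, Bowtie 1.0.0, TopHat2 2.0.10, Bowtie2 2.1.0, HTSeq 0.6.1, bcl2fastq 2.17.1.14 and the build mm9 were used; annotation release and strand setting are not given in the sources used here. Per the labels' protocols, ribosomal RNA was depleted from total RNA, while the molecule label names polyadenylated RNA, and extraction was by either of 2 methods not given per sample. GENCODE M21 on GRCm38 gave symbols for 32897 of 37620 identifiers, and served for names, lengths, GC content and exon overlap; promoter coordinates are RefSeq GRCm38.p6.

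Each cohort was tested with edgeR 4.0.16 (R 4.3.3; quasi-likelihood F test, two-sided, TMM scaling, filterByExpr with a minimum count of 10), with Benjamini-Hochberg adjustment over all genes tested and a threshold of 0.05. CPM use the TMM-scaled library size of each cohort; errors are SD for means and SE for fold changes. The interaction used 1 fit of 4 group means. Tests were run first on simulated counts. Alternatives were DESeq2 1.42.0, RLE scaling, other filters, a joint fit, robust empirical Bayes, each control genotype alone (the Rfx6f/+ one chosen after seeing the data) and each library left out.

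Groups came from genotype and time labels, which pair no libraries; replicate numbers follow accession order. Members and lists were chosen with earlier results of these data known. Full values are given for chains called in any of the 3 edgeR tests and for the abundant chains of types I, III, IV and VI, and for at most 4 called genes a partner list; called cell markers are named with the summary of their list, and other chains, also those that only an alternative called, by single values, ranges or counts. Timp3, Mmp7, Timp1, Timp4 and Bgn were named after their values were seen. The markers Dcn, Lum, Mfap5 and Fbln1 are in both the fibroblast and the stromal matrix list. Of the listed genes Mia3, Ctgf, Cyr61 and Foxl1 were not analysed here. Figures were drawn with matplotlib 3.10.9.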

Additional observations from a re-analysis of the deposited data

Results flagged for a closer look

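Of 60 checks for a library far from the other 3 of its group, 3 stood out, where chance gives about 1 in 20, or 3. Col1a1 in 3-month control replicate 4 was at 76.4 CPM and in the other controls at 98.1 to 99.7 CPM. Col6a5 in 8-day mutant-labelled replicate 3 was at 19.3 CPM, with 13.6 to 14.5 CPM in the others, and in 3-month control replicate 2 at 32.8 CPM, with 24.8 to 25.8 CPM in the others.

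The difference between labels changed from 8 days to 3 months in 3 type VI genes by edgeR's interaction test: Col6a2 by 0.81 on the log2 scale (SE 0.17, edgeR adjusted p = 0.0487), Col6a3 by 0.95 (SE 0.20, edgeR adjusted p = 0.0487) and Col6a4 by 0.91 (SE 0.17, edgeR adjusted p = 0.0342). At 3 months all 4 libraries labelled mutant were above all 4 controls in each of the 3 genes, and at 8 days the groups overlapped.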

How the results depend on the processing

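Collagen calls at 8 days were 0 in every alternative run (their median log2 fold change, 0.03, was -0.01 without control replicate 1), and at 3 months (15 by the reported test) they were 23 with DESeq2, which held all 15, 1 with Rfx6f/f controls only, 3 with Rfx6f/+ controls only, and 7 to 20 with 1 library left out. Adjusted p of Col4a3 stayed under the threshold in every alternative (2.19e-15 to 0.0487). Calls of the difference between times (3) were 13 with DESeq2, 5 with no filter, 8 with a filter of 10 counts in every library, 0 with Rfx6f/f controls only and 0 to 13 with 1 library left out. Over all genes the calls at 8 days (16) were 181 with DESeq2, 27 with no filter, 25 with all 4 groups in 1 fit and 8 to 200 with 1 library left out. At 3 months (1586) they were 2929, 36 with Rfx6f/f and 416 with Rfx6f/+ controls only, and 391 to 1521. Fewer controls entered the genotype fits; the other causes were not tested. Of the 40 chains at 3 months and the 3 rerun at 8 days (Col4a1, Col4a2, Col17a1), the sign turned in 4 uncalled chains of 3 months: Col26a1 (-0.37 to 0.04 with 1 library left out), Col28a1 (-0.09 to 0.10, -0.00 with all 4 groups in 1 fit, -0.10 with Rfx6f/+ controls only), Col6a6 (-0.20 to 0.60) and Col8a2 (-0.05 to 0.31). Col2a1, Col9a1, Col10a1 and Col19a1 had few counts and were not tested by the reported edgeR fits. The part of depth in this was not tested. No paired analysis was possible because the labels pair no libraries.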
